A study of Mus musculus with 24 samples.

Results

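The miR-183 cluster (miR-183, miR-96 and miR-182) is a group of microRNAs (miRNAs) whose hairpins lie next to each other on mouse chromosome 6 and whose assays on the arrays were mmu-miR-182, mmu-miR-183, mmu-miR-183* and mmu-miR-96 (mmu, for Mus musculus, is left out from here on). These 4 assays, of 584 miRNA assays in all, were taken by name from real-time PCR arrays of mouse muscle stem cells. They were chosen by their levels and missing values at 0, 36, 60 and 72 h, so all of those values are given as a description, without a test. The cells came from male C57BL/6 mice of 8 weeks. The 0 h group held quiescent stem cells, and the other groups held activated stem cells taken 36, 60 or 72 h after muscle injury. Every group had 3 replicates, each run on a TaqMan rodent card of type A and one of type B, which makes 24 arrays. Since the submitters describe the replicates as technical, their spread leaves out how mice differ from each other. The labels name neither the kind of injury nor the way the cells were purified. The headers of the authors' own tables call the last time point day 3.5, whereas the labels say 72 h, and the labels were followed.

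A miRNA is cut from a hairpin, whose strands can each be loaded into the silencing complex, and it pairs with mRNAs mainly through its seed, bases 2 to 8. The members of this cluster are made from one primary transcript and are best known from sensory cells of the ear and eye, and changes in the seed of miR-96 cause deafness in mice and humans. In human cancer cells miR-182 and miR-96 are reported to repress the mRNA of FOXO1, and in rodent muscle cells miR-182 is reported to repress that of FoxO3. FoxO3 is itself known as a factor that keeps mouse muscle stem cells quiescent.

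The mature sequences are shown because they carry what the members share. They are RefSeq's, with the seed in capitals, and all 4 assays were matched by name to the strand that RefSeq now calls 5p (miR-182, miR-183, miR-96) or 3p (miR-183*).
miR-182: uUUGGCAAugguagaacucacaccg
miR-96: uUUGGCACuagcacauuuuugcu
miR-183: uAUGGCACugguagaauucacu
miR-183*: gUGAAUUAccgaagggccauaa
The seeds of miR-182 and miR-96 have the same base at 6 of 7 positions, those of miR-96 and miR-183 also at 6, and those of miR-182 and miR-183 at 5. The seed of miR-183*, which comes from the opposite strand of the miR-183 hairpin, shares 0 to 2 positions with the other members. Among all mature mouse miRNAs in the RefSeq table, no other miRNA had the exact seed of miR-182, miR-183 or miR-183*, while that of miR-96 was also found in miR-1271-5p.

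The 3 hairpins lie on the minus strand of build GRCm38.p6 within 3820 bases. Mir183 is at chr6:30169668-30169737, Mir96 at chr6:30169446-30169551 and Mir182 at chr6:30165918-30165992. Mir183 and Mir96 are 116 bases apart, and a further 3453 bases separate Mir96 from Mir182. All 3 fall within Mirc35hg (chr6:30158640-30174125), annotated as a long noncoding RNA. The Mir183 hairpin is shown with both assayed strands in capitals, miR-183 first and miR-183* second, since the cards measured these strands separately.
Mir183: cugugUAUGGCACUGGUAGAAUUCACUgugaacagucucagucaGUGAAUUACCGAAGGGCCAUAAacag

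Each array file gives a threshold cycle (Ct) per spot, the cycle of the PCR in which fluorescence passed a set line. A lower Ct means more RNA, and 1 cycle is a 2-fold difference if amplification is complete. The level, on a log2 scale, is the mean of the 4 U6 Ct values on an array with the assay's own Ct subtracted. U6 is a small nuclear RNA, whose mean Ct was 14.88 to 15.39 over the groups of card A and 14.71 to 15.60 over those of card B. Assays differ in amplification, so levels are compared between times and not between assays. An array counted as detecting an assay when all its spots had a Ct below 35. On that rule 181 to 212 of the 375 assays of card A and 89 to 120 of the 209 assays of card B were detected per array. These are bulk samples, so fewer cells of a type and less RNA per cell cannot be told apart.

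Of the 4 members, only miR-182 had a Ct on 12 of 12 arrays. miR-183, on card A like miR-182 and miR-96, had a Ct on 6 arrays and lacked one on all arrays of 0 h and 36 h. miR-183*, spotted in duplicate on card B, had a Ct in both spots of the 3 arrays of 60 h and in 1 of 2 spots on 2 arrays of 72 h, and in no other spot. miR-96 had 1 Ct in all, on replicate 3 of 72 h. At a Ct of 36.66 it was above the detection limit, so miR-96 counted as detected on no array. An assay with at most 1 Ct over all arrays was common on these cards, at 216 of 584 assays (37.0%).

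**Figure D1:**
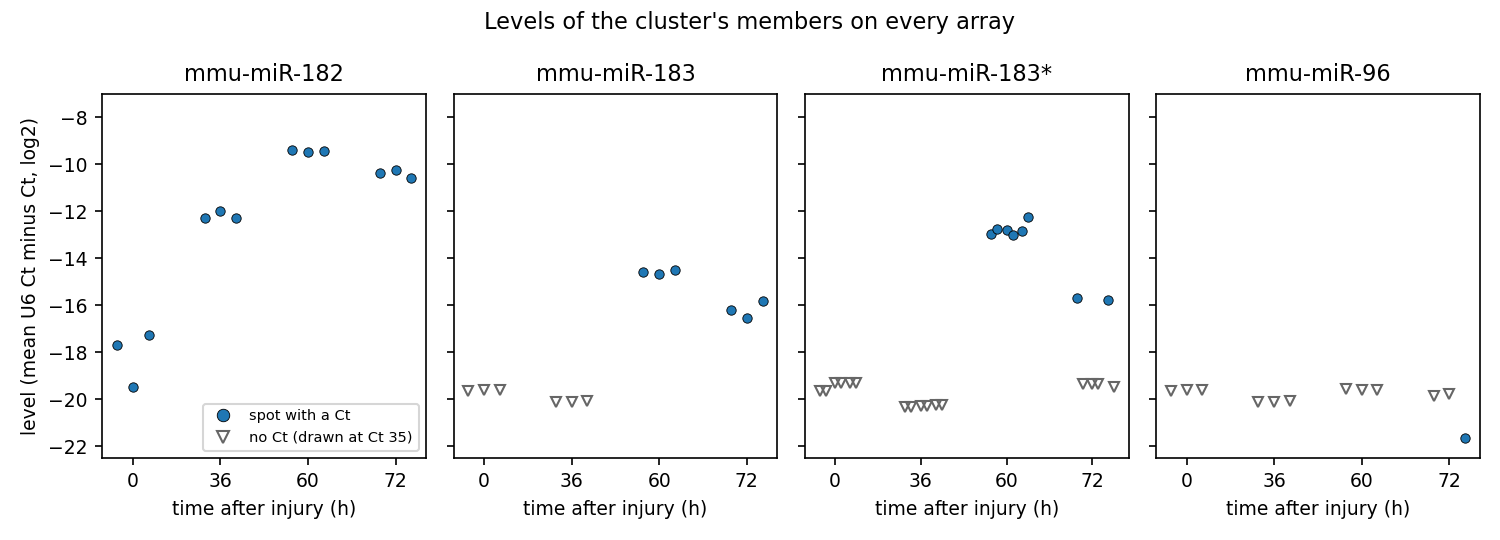
Level of each member (mean U6 Ct minus Ct, log2) for every spot against hours after injury (times equally spaced). Filled circles are spots with a Ct, and open triangles are spots without one, drawn at the level of Ct 35 on their array. The 3 levels of miR-182 at 60 h lie between -9.51 and -9.41, above those of the other times, and miR-183 and miR-183* have circles only at 60 and 72 h.

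miR-182 was near the limit of detection in quiescent cells and far above it in activated cells. At 0 h its Ct was 33.04, 34.88 and 32.65 in replicates 1 to 3, and its level was -17.69, -19.47 and -17.28. Replicate 2 was the low one, within 0.12 cycles of the limit. On the arrays of 36 h the level was -12.30, -12.02 and -12.31. The highest levels were those of 60 h, with -9.41, -9.51 and -9.45. By 72 h the level was -10.38, -10.25 and -10.59. The 3 arrays of each later time lay close together, with SDs of 0.05 to 0.17, against an SD of 1.16 at 0 h. No group overlapped another, so the order of the means was 60 h, 72 h, 36 h and 0 h.

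Against 0 h, miR-182 was 61.4-fold higher at 36 h, a log2 difference of 5.94 ± 0.68 (standard error, n = 3 arrays in each group). It was 413-fold higher at 60 h (8.69 ± 0.67) and 214-fold higher at 72 h (7.74 ± 0.68). An assay was counted as higher or lower when the replicates of the groups did not overlap and the means differed at least 2-fold. It was compared if at least 2 replicates of both groups detected it. On this count miR-182, the one member that could be compared with 0 h, was higher at all 3 times. So were 44.5% of the 272 compared assays at 36 h (12.1% were lower), 28.0% of 250 at 60 h (37.2% lower) and 20.9% of 244 at 72 h (46.7% lower). Ranked by the log2 difference, miR-182 was number 6 at 36 h, and number 2 at both later times, behind miR-31. Its difference exceeded that of the median assay by 5.12, 9.06 and 8.51 at the 3 times. Nearly all of the error came from the 0 h arrays. Without replicate 2 of 0 h, whose Ct was the highest, the log2 differences of 36, 60 and 72 h were 5.28, 8.03 and 7.08.

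The step from 36 to 60 h does not use the 0 h arrays and was measured more closely. miR-182 was 6.74-fold higher at 60 h than at 36 h (log2 2.75 ± 0.10, n = 3). This was the highest value among the 279 assays compared, whose median was -1.02, but miR-31 (2.65 ± 0.02) and its partner strand miR-31* (2.62 ± 0.11) differed from it by less than 2 standard errors, and with Y1 as the reference miR-31* was above it (3.39 against 3.30). Only 14 of them (5.02%) were counted as higher and 140 (50.2%) as lower. U6 had a mean Ct of 14.88 at 36 h and 15.39 at 60 h on card A, and the size of this step depends on the reference RNA. Relative to snoRNA202, a small nucleolar RNA, miR-182 was higher by log2 4.28. Relative to a global mean, taken over assays that all 12 arrays of a card detected, it was higher by 4.20. In these settings 94 and 77 of the 279 assays were higher, and the median assay lay at 0.48 and 0.098. The excess of miR-182 over the median assay was 3.77 with U6, 3.80 with snoRNA202 and 4.10 with the global mean. At 72 h miR-182 was still 3.48-fold above 36 h (1.80 ± 0.14), where 4.07% of 270 assays were counted as higher and 69.6% as lower.

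From 60 to 72 h the members with a Ct were lower. For miR-182 the log2 difference was -0.95 ± 0.11 (n = 3), and although the replicates did not overlap it was just under 2-fold and close to the median of -0.75 over 265 assays. Without replicate 2 of 72 h it was -1.03 and was counted as lower. Of these, 97 (36.6%) were counted as lower and 2 (0.755%) as higher. miR-183 was 3.03-fold lower (log2 -1.60 ± 0.21, n = 3; -0.85 relative to the median assay) and was counted as lower. Both values shrank with other references. With the global mean miR-182 was at -0.076 and miR-183 at -0.72, and with snoRNA202 they were at -0.31 and -0.96, so neither was then counted as lower.

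**Figure D2:**
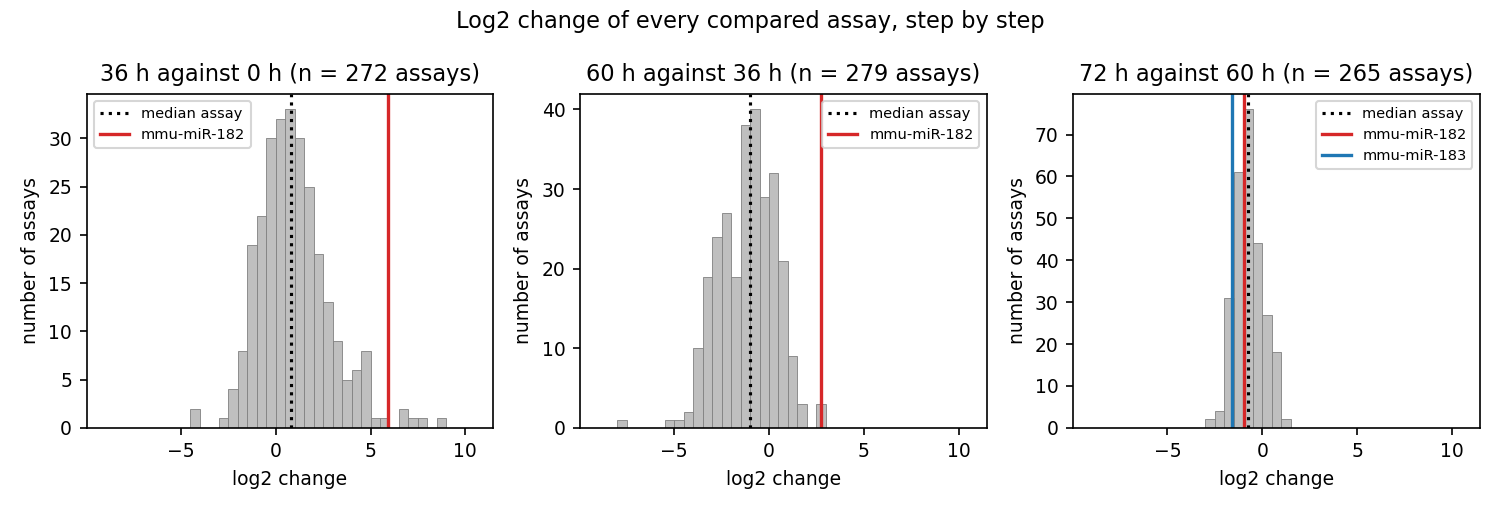
Number of assays (vertical axis) by log2 change (horizontal axis, bins of 0.5) for 36 h against 0 h, 60 h against 36 h and 72 h against 60 h. The dotted line is the median assay, the red line miR-182 and the blue line miR-183. Assays without a Ct in either group are not drawn. In the middle panel miR-182 lies at 2.75, the right edge of the 279 compared assays, and in the right panel at -0.95, near the median of -0.75.

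miR-183, reported in human cells to repress the mRNAs of EGR1 and integrin beta 1, had a Ct only at 60 and 72 h. At 60 h its Ct was 29.99, 30.05 and 29.91, and its level -14.58, -14.68 and -14.51. At 72 h its level was -16.20, -16.55 and -15.83, below every array of 60 h. With the missing values set at Ct 35, miR-183 at 60 h was at least 32.8-fold above 0 h and at least 46.1-fold above 36 h. At 72 h it was at least 10.8-fold above 0 h and at least 15.2-fold above 36 h. These bounds hold only if a spot without a Ct had a Ct of 35 or more.

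miR-183*, the other strand of the same hairpin, likewise had a Ct only at 60 and 72 h. At 60 h its 6 spots had levels from -13.01 to -12.27, and the means of the 3 arrays averaged -12.78 ± 0.19 (SD). With 0 h and 36 h at Ct 35, this was at least 102-fold above 0 h (log2 6.67) and higher than 36 h by at least 7.51 on the log2 scale. At 72 h the spots with a Ct had levels of -15.70 (replicate 1) and -15.78 (replicate 3), and the remaining 4 of 6 spots had none. The 60 h mean was 7.61-fold above the highest spot of 72 h.

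The pattern of no Ct at 0 and 36 h and detection on 3 of 3 arrays at 60 h was written after the values of miR-183. Its share is therefore a description and no test. It held for 4 of 584 assays (0.685%), namely miR-183 and miR-183*, strands of the same hairpin, and miR-298 and miR-675-3p. The last 2 were named after their values were seen. Unlike that of miR-183, their means were higher at 72 h than at 60 h, since the mean level of miR-298 was -17.16 at 60 h and -16.49 at 72 h, and that of miR-675-3p, which is cut from the imprinted H19 RNA, was -16.74 and -15.88. The arrays of miR-298 overlapped between these times, with 72 h levels from -17.79 to -15.55 around the 60 h levels. Leaving aside 36 h, no Ct at 0 h with detection on all 3 arrays held for 29 assays at 36 h (4.97%), 16 at 60 h (2.74%) and 17 at 72 h (2.91%).

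At 36 h miR-182 had a Ct of 26.89 to 27.23 while miR-183 had none on the same arrays. The Ct of miR-183 minus that of miR-182 on the same array does not depend on a reference RNA. It was 5.17, 5.17 and 5.07 at 60 h, and 5.82, 6.30 and 5.23 at 72 h, a change of 0.65 ± 0.31 (standard error, n = 3) with groups that barely missed each other. Without replicate 2 of 72 h this change was 0.39, and without replicate 3 of 72 h it was 0.92. At 36 h, with miR-183 at Ct 35, the difference was at least 7.85, 8.11 and 7.77, so on average at least 2.77 cycles more than at 60 h. With the 60 h difference, the Ct of miR-183 would have been 32.23 at 36 h, below the limit of 35, and 38.66 at 0 h, above it. The 0 h arrays therefore could not show the pair moving together or apart.

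**Figure D3:**
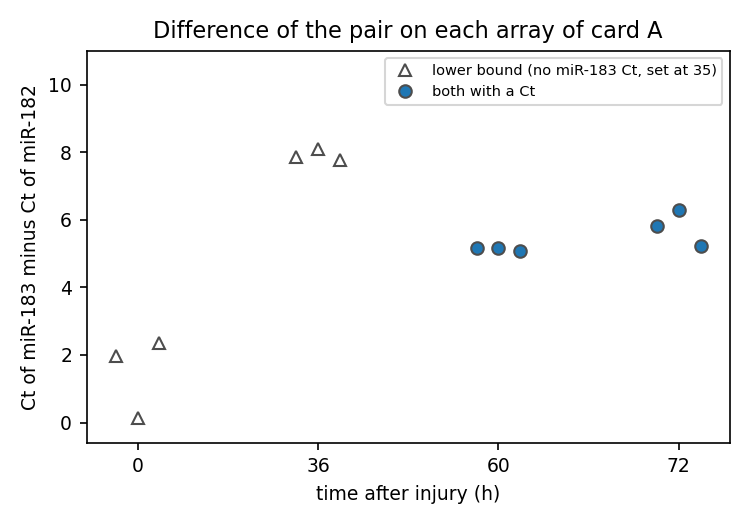
Ct of miR-183 minus Ct of miR-182 on each of the 12 arrays of card A against hours after injury (times equally spaced). Filled circles are arrays with both Ct values, and open triangles are lower bounds with miR-183 set at Ct 35. The 36 h bounds, 7.77 to 8.11, lie above all 6 measured differences, 5.07 to 6.30.

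How far these bounds reach depends on how often a spot fails to give a Ct. On card A, assays whose present values averaged a Ct of 30 to 32 in a group had all 3 values in 84.1% of 88 cases, and those at 32 to 34 in 60.0% of 80 cases. On card B, both duplicate spots had a Ct in 94.1% of 202 cases at 30 to 32, and in 77.1% of 157 cases at 32 to 34. At 34 to 36, around the limit of 35, the shares were 28.6% of 49 cases on card A and 60.4% of 48 on card B. Cases without any Ct have no mean and are left out of these shares. Groups as empty as those of miR-183 and miR-183* at 0 and 36 h are therefore not counted, and the shares cannot say how often such groups arise. miR-183* at 72 h, with single spots at 31.36 and 31.30 beside an empty partner, was among the 12 cases on card B at 30 to 32 with a missing spot. If an empty spot is taken to mean only a Ct of 32 or more, the difference of miR-183 and miR-182 at 36 h is no longer shown to be above that at 60 h (at least -0.23 in place of at least 2.77). miR-183 was then at least 2.53 (log2) above 36 h at 60 h.

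**Figure D4:**
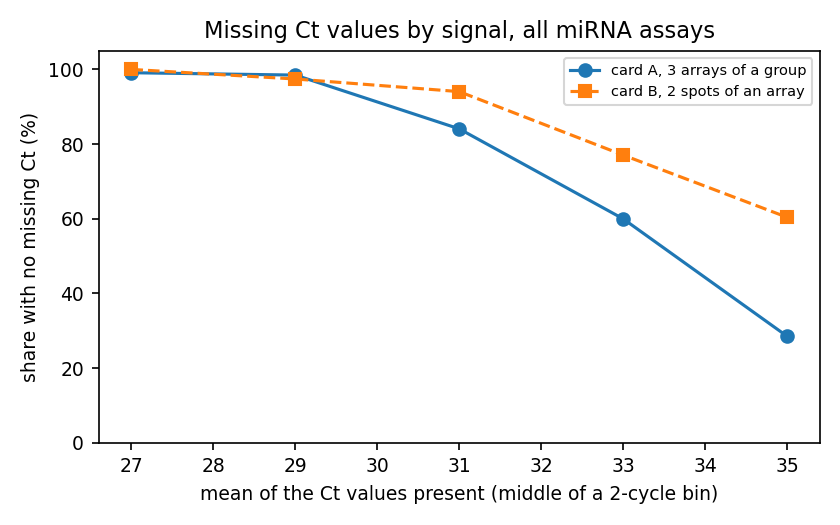
Share of cases with no missing Ct (percent) against the mean of the Ct values that were present, in bins of 2 cycles, over all miRNA assays. Cases without any Ct are left out. Circles are groups of 3 arrays on card A, and squares are duplicate spots on card B. On card A the share goes from 99.1% at 26 to 28 cycles to 60.0% at 32 to 34 and 28.6% at 34 to 36.

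The authors' deposited table gives mean fold changes against day 0 for the same members. For miR-182 it lists 84.1 at day 1.5 and 520 at day 2.5, means of fold changes over replicates. For miR-183 the authors' deposited table lists 0.711 at day 1.5 and 1049 at day 2.5. In the authors' deposited table miR-96 stands at 0.711 and both spots of miR-183* at 2.66 at day 1.5. Apart from miR-182, none of these assays had a Ct at 0 or 36 h in the array files, so these day 1.5 values rest on no measured Ct, and the value of 1049 is no measured ratio either.

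The profiles nearest to that of miR-182 were found over the 4 group means, each profile centred on its own mean, among 237 assays detected at every time. The nearest was miR-31, known to hold back the translation of Myf5, a muscle-determining factor, in quiescent mouse muscle stem cells, with a root mean square difference of 0.56 (log2). It was followed by miR-133b (1.10), a muscle-enriched miRNA, miR-322 (1.37), miR-449a (1.38) and miR-19a (1.42). Against 0 h, miR-31 was higher by log2 7.29, 9.93 and 9.01 at 36, 60 and 72 h, with the same order of times as miR-182. In contrast, miR-133b was highest at 72 h (log2 6.11 against 0 h, 5.61 at 60 h) and, with U6 as the reference, miR-322 at 36 h (6.64, against 5.96 at 60 h).

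**Figure D5:**
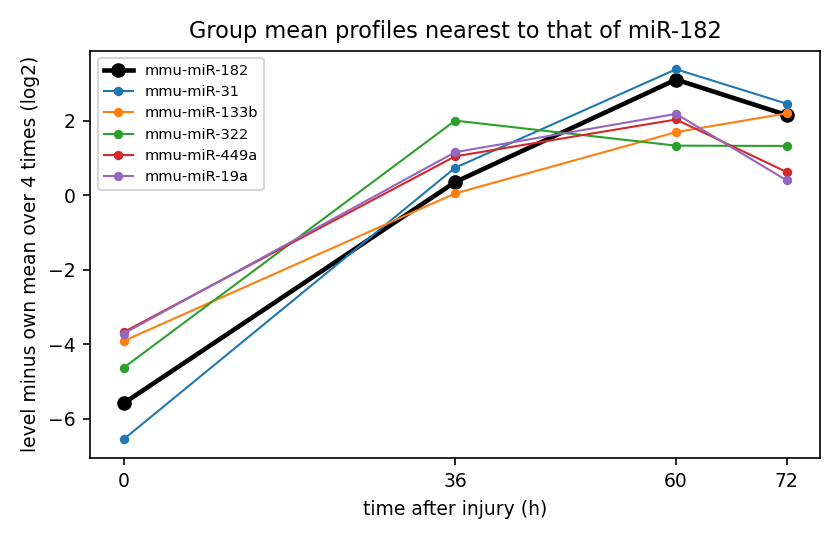
Group mean level minus the assay's own mean over the 4 times (log2) against hours after injury, for miR-182 (thick black line) and the 5 nearest profiles. miR-31 follows miR-182 most closely and both are highest at 60 h, whereas miR-133b is highest at 72 h and miR-322 at 36 h.

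Other miRNAs reported to repress FoxO1 or FoxO3 mRNAs in various mammalian cells were listed as miR-27a, miR-27b, miR-132, miR-155, miR-212, miR-221, miR-222, miR-223 and miR-486. The list was chosen with earlier results known. Of the 9, 8 were on the cards and 7 could be compared. At 36 h against 0 h, 6 were counted as higher and 0 as lower, with a median log2 difference of 2.07 against 0.82 for all assays, of which 44.5% were higher. At 60 h, 6 were higher and miR-27b was lower (median 1.91 against -0.37), beside 28.0% of all assays higher. At 72 h 3 were higher and 1 lower (median 0.44 against -0.77), beside 20.9% higher. The largest differences at 60 h were those of miR-221 (log2 5.52 ± 0.08), miR-223 (4.06 ± 0.06) and miR-132 (2.13 ± 0.09). Of the 6 higher ones, miR-223 and miR-155 are also leukocyte markers. From 36 to 60 h, where miR-182 was higher by 2.75, 0 of the 7 were counted as higher and 4 as lower with U6. With snoRNA202 or the global mean 3 were higher and 1 lower, beside 94 and 77 of all 279 compared assays higher. With U6, 5.02% of all assays were higher and 50.2% lower in this step, so the list was near the background. The highest value there was that of miR-221, at 0.60 ± 0.06 with U6.

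Markers of other cells that could be in the sample were read on the same arrays. Of 7 epithelial assays, 6 had no Ct at 0 h and 4 had none at 36 h, and at the later times it was 6 and 5. The defining miR-200a, miR-200b, miR-141 and miR-429 had no Ct on any array, while miR-200c and miR-205 were detected on 3 of 3 arrays at 36 h. The summed level of the epithelial list, carried by miR-203, was -9.22 to -9.05 (log2) at 0 h, -8.75 to -8.59 at 36 h, -10.91 to -10.78 at 60 h and -12.25 to -12.04 at 72 h. It was thus lower at 60 h than at 0 h on every array, while miR-182 was at its highest, but with snoRNA202 as the reference it was higher at 60 h by log2 0.72. Of 9 neural assays, miR-124, miR-219 and miR-153 had no Ct on any array. Detection on all 3 arrays of a group held for 3 assays in the 0 h and 60 h groups, but for 5 in the 36 h group and 4 in the 72 h group. Both miR-9 and miR-137 lacked a Ct in quiescent cells and were detected on 3 of 3 arrays of 36 h. The single assay with a Ct only in the 72 h group was miR-129-3p, detected on 3 of 3 arrays. The summed neural level was -10.68 to -10.44 at 0 h, -9.16 to -9.10 at 36 h, -10.50 to -10.29 at 60 h and -10.67 to -10.42 at 72 h. Its difference from 36 to 60 h was -1.27 with U6, 0.25 with snoRNA202 and 0.17 with the global mean.

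The summed levels of the leukocyte and of the endothelial assays were higher at 36 h than at 0 h and 60 h with each of the 5 references. A summed level adds assays that can differ in amplification, so it mostly follows the assays with the highest levels. The summed level of 6 leukocyte assays was -5.38 to -5.34 at 0 h, -3.72 to -3.65 at 36 h, -6.57 to -6.44 at 60 h and -7.42 to -7.28 at 72 h. At 0 h this sum was mostly miR-150, whose mean level was -5.53 at 0 h and -9.20 at 60 h. Its single members differed at 60 h against 0 h, where 28.0% of all 250 compared assays were higher and 37.2% lower. Of 5 compared leukocyte assays, 3 were counted as higher, as miR-182 was, and 1 as lower, with a median of log2 1.91. The higher ones were miR-142-3p (5.91 ± 0.89), miR-223 (4.06 ± 0.06) and miR-155 (1.91 ± 0.09), and the lower one was miR-150 (-3.67 ± 0.07). With snoRNA202 the summed level was higher at 60 h than at 0 h by log2 1.26 for the leukocyte and 0.63 for the endothelial list. Both endothelial assays, the strands of miR-126, were detected on all arrays, with a summed level of -4.52 to -4.44, -2.29 to -2.28, -6.28 to -6.19 and -6.42 to -6.40 at these times. At 60 h, where miR-182 was at its highest, both summed levels were below those of 36 h. The erythroid miR-451 was detected on no array at 0 h and on 3 at both 36 and 60 h, with mean levels of -13.61 and -17.28. It was detected on 1 array at 72 h, and miR-486, also erythroid, had no Ct. The summed level of the muscle list was higher at 60 and 72 h than at 0 h with each reference, as the level of miR-182 was. With U6 it was -4.04 to -3.69 at 0 h, -3.34 to -3.23 at 36 h, -1.77 to -1.74 at 60 h and -1.02 to -0.93 at 72 h, mostly from miR-206. Of 7 muscle assays 5 were detected on every array, among them miR-206, with mean levels of -3.86 at 0 h and -1.81 at 60 h, and miR-208b and miR-499 had no Ct. The part of any of these cells in the levels of the cluster was not tested.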

How the data were processed

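The data are 24 arrays, 12 of each card type. The card type was read from the assay names, since the labels do not give it. Per the labels, RNA was isolated with Trizol and amplified for 40 cycles on an ABI 7900HT instrument, and the authors deposited 1 Ct per spot. For the Ct threshold and the software, the sources used here give nothing. The deposited tables' fold changes are linear ratios averaged by the authors over replicates, per the file headers, and 84 other per-sample columns of those tables were not used. Spots were averaged per assay and array, undetected values were left out, and levels, differences and standard errors (from the SDs of both groups) were computed with Python 3.11.15, numpy 2.4.6 and pandas 2.3.3. No p-value was computed. Markers were read under each of 5 reference settings. The count rule and the profile distance were tested on simulated data. Members, lists and naming rules were chosen with earlier results of these data known. Named are the members, the 5 nearest profiles, the examples of the lists and the control RNAs. Also named, after their values were seen, were miR-31*, miR-141*, miR-298, miR-374 and miR-675-3p. Alternatives were other reference RNAs, U6 summaries, detection limits, the handling of undetected values and leaving out each replicate. The arrays give no read depth, and their number limits the precision.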

Additional observations from a re-analysis of the deposited data

How the results depend on the processing

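No paired analysis was possible because no result comes from a test, and the replicates are technical. Leaving out 1 replicate moved no value beyond the replicate spread, but without replicate 2 of 72 h miR-182 was counted as lower at 72 h than at 60 h (-1.03). The change of the pair difference from 60 to 72 h ranged from 0.39 (without replicate 2 of 72 h) to 0.92 (without replicate 3 of 72 h). Leaving out 1 replicate gave 5.28 to 6.37 for miR-182 at 36 h against 0 h, 8.03 to 9.13 at 60 h and 7.08 to 8.18 at 72 h, so replicate 2 of 0 h decides these folds by over 1.5 times. Taking U6 as 1 constant per group, or the median of its spots, moved no value beyond the replicate spread and no count by over 1.5 times. The reference RNA moved sizes but reversed no direction of miR-182 or miR-183, whereas it turned the sign of summed levels of the epithelial, neural, leukocyte and other lists in some comparisons. For miR-182 the log2 changes were 6.82, 11.10 and 10.79 at 36, 60 and 72 h against 0 h with snoRNA202, 8.61 at 72 h with snoRNA135, and 4.65 at 36 h and 8.77 at 72 h with the mean of the detected assays. From 36 to 60 h they were 4.28 (snoRNA202), 2.87 (snoRNA135), 3.30 (Y1) and 4.20 (mean), and from 36 to 72 h 3.97, 2.45, 2.78 and 4.12. From 60 to 72 h they were -0.31, -0.42, -0.52 and -0.076 for miR-182 and -0.96, -1.07, -1.17 and -0.72 for miR-183. The least log2 changes of miR-183 in the same order of references were 7.44, 5.37, 4.93 and 5.19 (60 h against 0 h), 6.48, 4.30 and, with the mean, 4.47 (72 h against 0 h), 7.05, 5.65, 6.07 and 6.97 (60 h against 36 h), and 6.10, 4.58, 4.90 and 6.25 (72 h against 36 h). Those of miR-183* at 60 h were 9.21, 7.07 and 6.41 (snoRNA202, snoRNA135, Y1) against 0 h, and 8.95 (snoRNA202), 8.28 (Y1) and 8.22 (mean) against 36 h. With empty spots at Ct 40 the least changes of miR-183 were 10.03 and 8.43 against 0 h (60 and 72 h) and 10.53 and 8.93 against 36 h, and those of miR-183* 11.67 and 12.51. At Ct 32 they were 2.03, 0.43, 2.53, 0.93, 3.67 and 4.51 in that order. The least excess of the pair difference at 36 h over 60 h was 2.77 at Ct 35, 7.77 at Ct 40 and -0.23, the single reversal, at Ct 32, by construction of the limit. At Ct 32 miR-182 had no value against 0 h. The numbers of assays counted as higher were 179 (60 h against 0 h), 166 (72 h against 0 h), 94 (60 h against 36 h) and 72 (72 h against 36 h) with snoRNA202. With Y1 they were 76 (36 h against 0 h), 47 (60 h against 36 h) and 20 (72 h against 36 h). In the same order they were 60, 77 and 77 with the mean. Assays lower at 72 h against 60 h numbered 37 with snoRNA202, 52 with snoRNA135 and 16 with the mean. With undetected values at Ct 35 all 584 assays were compared and 78 (72 h against 0 h), 22 (60 h against 36 h) and 23 (72 h against 36 h) were higher, and 2 of the 5 nearest profiles remained. The 5 were the same with the mean, by construction where both assays share a card. The cause of the differences between reference RNAs was not tested.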

Other observations

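The control RNAs of card A, against which the members' differences shrink or grow, did not hold a constant ratio to U6. At 60 h against 0 h the log2 difference was -2.40 for snoRNA202, -0.34 for snoRNA135 and 0.11 for Y1, and at 72 h it was -3.05, -0.87 and -0.32. On card B, which holds miR-183*, the values in the same order were -2.55, -0.40 and 0.26 at 60 h. At 72 h they were -2.61, -0.35 and 0.72, so Y1 differed in sign between the cards.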
